A study of Mus musculus with 48 samples.

Results

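Inhibitory interneurons were followed through 10 genes that mark them or carry out their signalling: Gad1, Gad2, Slc32a1, Sst, Pvalb, Vip, Npy, Reln, Cck and Lhx6. They were chosen by mouse gene symbol and were matched 1 to 1 to Ensembl identifiers, which made 10 of the 48709 genes with read counts. Messenger RNA was sequenced from whole tissue of 46 male mice in 8 groups, all of strain C57BL/6J. In the Fmn2 line, dentate gyrus (DG, the input region of the hippocampus) came from 5 Fmn2+/+ and 5 Fmn2-/- mice of 3 months and from 3 Fmn2+/+ and 5 Fmn2-/- mice of 8 months, the mutants being constitutive knockouts of the actin nucleator formin 2. In an amyloid cross of 3 months, DG came from 7 mice labelled FMN2-/-_APP and 9 labelled FMN2 +/+ APP, and all 16 carry the APP label, so that this cross has no group without the amyloid transgene. A last pair of groups, with an age field of 4 months and a title that reads PFC (prefrontal cortex), held 6 APP and 6 wild type mice. The APP mice of the study carry mutant human APP and presenilin 1 under the neuronal Thy1 promoter, and deposit amyloid.

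Inhibitory interneurons release GABA onto neighbouring neurons and so set how many principal cells fire together. GABA is made from glutamate by 2 decarboxylases, GAD67 (Gad1) and GAD65 (Gad2), and is loaded into synaptic vesicles by a transporter (Slc32a1, VGAT). Classes of interneurons are told apart by what else they make: the calcium buffer parvalbumin (Pvalb), the peptides somatostatin (Sst), vasoactive intestinal peptide (Vip), neuropeptide Y (Npy) and cholecystokinin (Cck), or the secreted glycoprotein reelin (Reln). Lhx6 is the homeodomain factor kept by interneurons born in the medial ganglionic eminence, to which the Sst and Pvalb classes belong. Several are also made by other cells of the hippocampus: granule cells can carry Gad1 and, after seizures, Npy, mossy cells and pyramidal cells make Cck, and Cajal-Retzius cells make Reln. In whole tissue, fewer cells of a type and less RNA per cell cannot be told apart.

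The promoters of 4 members that the results below turn on (Sst, Cck and Reln, whose groups were apart at 8 months, and Vip, which differed most between tissues) are shown because peptide genes are classical targets of CREB, the factor that binds the cAMP response element (CRE). Each window holds the 250 bases before the annotated start, from RefSeq on GRCm38.p6 (mm10), written 5′ to 3′ on the strand of the gene. Capitals mark the CRE, TGACGTCA, its 5-base core, TGACG, or the TATA box, TATAAA, on either strand, and every full CRE holds the core. The windows are chr16:23890845-23891094, minus strand, for Sst, chr9:121495695-121495944, minus strand, for Cck, chr10:5638968-5639217, plus strand, for Vip, and chr5:22344706-22344955, minus strand, for Reln.
Sst: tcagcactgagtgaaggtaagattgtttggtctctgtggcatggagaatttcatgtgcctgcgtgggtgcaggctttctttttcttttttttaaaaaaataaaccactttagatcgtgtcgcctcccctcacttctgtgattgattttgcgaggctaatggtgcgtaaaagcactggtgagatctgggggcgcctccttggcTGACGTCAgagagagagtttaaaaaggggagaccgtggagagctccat
Cck: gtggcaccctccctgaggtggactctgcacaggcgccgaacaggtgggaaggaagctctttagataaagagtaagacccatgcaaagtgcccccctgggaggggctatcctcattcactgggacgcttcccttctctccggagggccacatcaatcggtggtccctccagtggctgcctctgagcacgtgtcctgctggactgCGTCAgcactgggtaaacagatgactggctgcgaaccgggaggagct
Vip: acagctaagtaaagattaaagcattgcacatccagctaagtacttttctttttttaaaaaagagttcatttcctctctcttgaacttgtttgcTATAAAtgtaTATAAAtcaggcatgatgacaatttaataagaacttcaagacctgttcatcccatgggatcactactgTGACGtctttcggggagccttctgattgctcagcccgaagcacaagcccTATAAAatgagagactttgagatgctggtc
Reln: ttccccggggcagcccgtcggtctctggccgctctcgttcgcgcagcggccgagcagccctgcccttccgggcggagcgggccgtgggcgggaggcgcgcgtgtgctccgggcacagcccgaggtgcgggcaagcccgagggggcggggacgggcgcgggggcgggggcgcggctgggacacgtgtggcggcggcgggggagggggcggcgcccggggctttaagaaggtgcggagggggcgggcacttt
The full CRE was found in Sst alone of the 10 members, at 48 to 41 bases before the start, and in 508 of all 32851 promoter windows (1.55%). The core was found in 4 members, Sst, Gad2, Vip and Cck, and in 17.8% of all windows. The TATA letters were found in 2 members, Vip and Gad1, and in 12.4% of windows. The Reln window held none of the motifs and was 80% G and C.

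The libraries held 6818809 to 43921030 reads assigned to genes, and all 8-month libraries but 1 held fewer than the shallowest 3-month library of the line. The 3 Fmn2+/+ mice of 8 months held 43921030, 6818809 and 8381078 reads and the 5 Fmn2-/- mice of that age 9175551 to 11675280. Fmn2 itself lay at 93.2 to 113 CPM (read counts scaled to the size of the library) in Fmn2+/+ and 23 to 28.1 in Fmn2-/- mice of 3 months. In the cross it was 84.2 to 103.7 in the 7 libraries labelled FMN2-/-_APP and 19.2 to 24.2 in the 9 labelled FMN2 +/+ APP, opposite to the labels, so these groups are named only as labelled. The PFC-titled libraries carry "Dentate gyrus" as their tissue field, but 5 granule cell markers summed to 118 to 173 CPM there against 638 to 1212 in the DG groups, and 5 cortical neuron markers to 421 to 479 against 78.9 to 224. Their titles also name several ages. Library titles carry a sequencing lane: in the PFC-titled set, all APP libraries are on lane 7 and all wild types on lane 5, so lane and genotype cannot be told apart. The study names the controls of the Fmn2 line as littermates, but not which mice shared a litter or a dissection, so p-values measure the spread between these mice.

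All 10 genes were read deeply enough to be followed in each mouse. The lowest count in any mouse was 76 reads, for Vip, and the highest 16784, for Gad2. On a scale per length (CPM per kilobase of exon), 3 of the 4 peptides led: group medians were 122 to 230 for Sst, 116 to 214 for Cck and 83.8 to 165 for Npy. GABA synthesis followed, with 35.8 to 52.6 for Gad1 and 24.8 to 39.2 for Gad2, then Pvalb with 18.5 to 35.5 and Slc32a1 with 11.7 to 19.6. Vip ranged from 2.62 to 17.4, Lhx6 from 3.65 to 4.64 and Reln, the gene with the longest transcript of the set, from 2.43 to 3.96. The ratio of the highest to the lowest group median was 6.65 for Vip, between 1.47 and 1.97 for the other members except Lhx6, and 1.27 for Lhx6. When the 8 groups were ordered by median, neighbouring groups overlapped in all 7 steps for 7 members. Slc32a1, Sst and Vip each had 1 step without overlap. For Slc32a1 and Vip it lay between the nearest DG group and the PFC-titled groups, and for Sst between the 8-month Fmn2-/- and the 8-month Fmn2+/+ mice. Only neighbours by median were compared. The highest Slc32a1 of the cross, 90.4 CPM, exceeded every PFC-titled mouse (at most 59.8). Sst of the 8-month Fmn2-/- mice (79.1 to 99.5 CPM) overlapped both 3-month groups of the line and the cross.

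**Figure D1:**
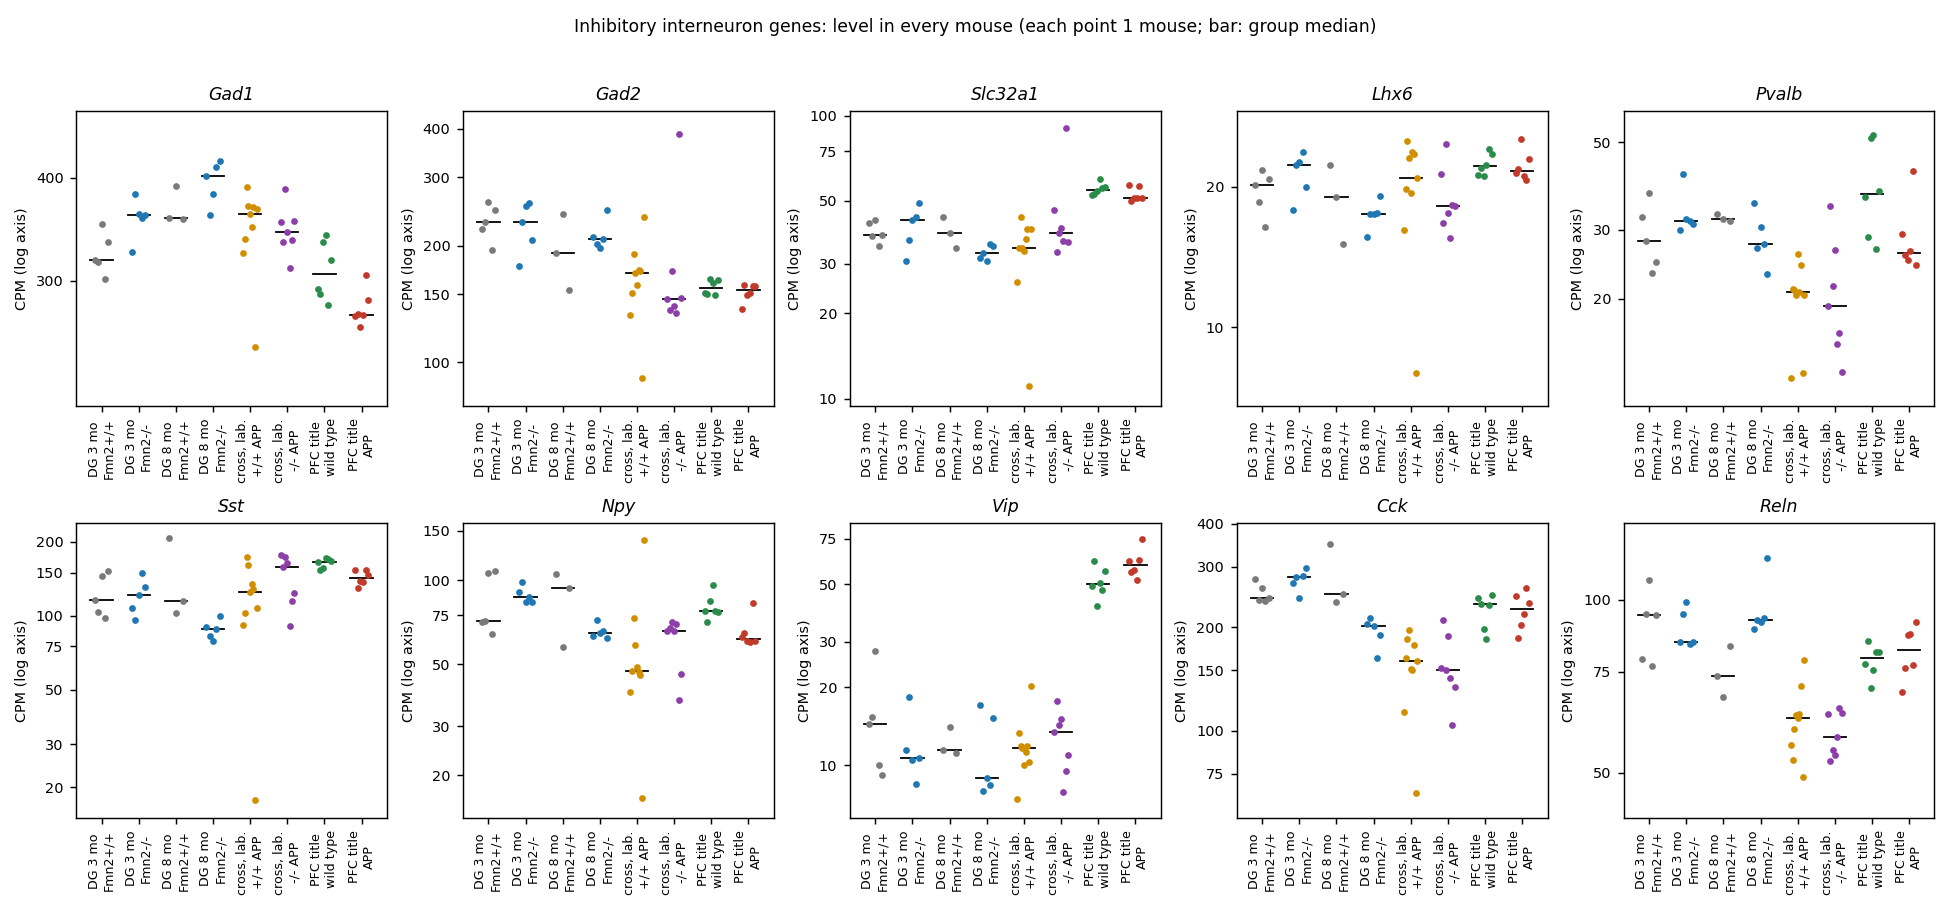
Level of each of the 10 genes in every mouse, in CPM on a log axis, for the 8 groups on the horizontal axis; each point is 1 mouse and each bar the group median. Vip stands at 41.5 to 75.2 CPM in the PFC-titled groups and at no more than 27.5 in any DG mouse, and 1 mouse labelled FMN2 +/+ APP lies at the bottom of the Sst, Slc32a1, Npy, Cck and Lhx6 panels.

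The largest difference among the groups was that of Vip between tissues. Age field and experiment also differ between the PFC-titled wild types and the DG samples, so tissue, age and experiment cannot be told apart. This holds for every difference between tissues given below. Vip (vasoactive intestinal peptide, made by interneurons that mostly inhibit other interneurons) is at chr10:5639218-5647617. Its level in the 5 wild type DG samples of 3 months was 9.20, 14.4 and 27.5 CPM (lowest, median, highest), and in the 6 PFC-titled wild types 49.5, 61.6, 41.5, 50.5, 47.6 and 56.2. The groups did not overlap, and Vip was 3.39-fold higher in the PFC-titled mice (log2 fold change 1.76 ± 0.22 (SE), n = 6 and 5, adjusted p = 3.96e-06, edgeR quasi-likelihood test with Benjamini-Hochberg adjustment over all genes tested). It was called in all 15 alternative fits, with log2 fold changes of 1.60 to 2.10.

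Of the GABA machinery, the vesicular transporter and GAD65 moved in opposite directions between these tissues. Slc32a1 (chr2:158610767-158615748) was 34.6, 38.0 and 42.7 CPM in DG and 52.3, 52.9, 54.1, 59.8, 55.4 and 56.1 in the PFC-titled wild types, a log2 fold change of 0.52 ± 0.06 (SE, adjusted p = 8.02e-07). Gad2 (chr2:22622205-22693874) was 194, 230 and 260 CPM in DG and 151, 150, 164, 160, 149 and 164 in the PFC-titled mice, a log2 fold change of -0.53 ± 0.06 (SE, adjusted p = 9.08e-07). Both groups were apart for both genes. Gad1 (chr2:70553072-70602014), the gene of the enzyme that supplies most of the GABA of the cell body, showed a log2 fold change of -0.04 ± 0.06 (SE, adjusted p = 0.495). So 3 of 10 members were called (adjusted p under 0.05 with a log2 fold change of 0.5 or more in either direction), against 45.1% of all 16661 genes tested, a share lower for the members than for the background. Groups without overlap were found for 4 of 10 members, the other one being Sst, against 57.7% of all genes. Both calls lay close to the fold threshold: with an offset for gene length and GC content the log2 fold change was 0.10 for Slc32a1 (adjusted p = 0.151) and -0.34 for Gad2, and neither was called. Without the 3-month Fmn2+/+ replicate 4 Slc32a1 had 0.49, and without replicate 3 Gad2 had -0.49, each just under the threshold.

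The class markers of the medial ganglionic eminence had smaller fold changes between the tissues. Sst (chr16:23889573-23890958), at 97.5 to 153 CPM in DG and 153 to 172 in the PFC-titled wild types, had a log2 fold change of 0.44 (adjusted p = 0.00057), under the fold threshold. Pvalb (chr15:78191114-78206400) had 0.43 (adjusted p = 0.0382), with 23.2 to 37.2 and 26.8 to 52.3 CPM. Pvalb was called with the length and GC offset (0.73, adjusted p = 0.00247) and, at 0.52 to 0.53, without the Fmn2+/+ replicate 3 or without the PFC-titled wild type replicates 2 or 5, and Sst without the Fmn2+/+ replicate 5 (0.52). Lhx6 (chr2:36081953-36105408) had 0.22 (adjusted p = 0.00877), with 16.4 to 21.8 and 21.1 to 24.1 CPM. With the length and GC offset Lhx6 turned to -0.13 (adjusted p = 0.0734), so its direction was not stable. Npy, Cck and Reln had log2 fold changes of -0.04, -0.15 and -0.18, with overlapping groups.

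Other interneuron genes also differed by tissue, where 45.1% of all genes were called. Of 20 other class markers tested, 8 were called higher in the PFC-titled wild types and 4 lower. Chodl, a marker of long-range projecting Sst cells, was higher by 4.07 on the log2 scale (adjusted p = 1.3e-06), whereas Calb2 (calretinin, also made by mossy cells) had -3.21 and Adarb2 -2.05. Of 12 transcription factors of interneurons tested, 4 were called, among them Sp8 (1.07) and Npas1 (0.52), which were higher, and Nr2f2 (COUP-TFII), which was lower, with -1.97. Of 13 receptors for the peptides and reelin, 2 were higher and 6 lower. Cckbr, the main cholecystokinin receptor of the brain, had 3.04 and Npy2r, a presynaptic receptor for neuropeptide Y, -4.71. None of 5 genes of GABA uptake and breakdown was called. Several of these receptors are also made by principal cells, whose marker sums stood apart between the tissues (above), and the part of those cells in the values was not tested.

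Loss of Fmn2 at 3 months was not accompanied by a called difference in any of the 10 genes. Only 0.0301% of the 16630 genes tested were called (adjusted p under 0.05 with a log2 fold change of 0.25 or more in either direction), which is 5 genes, while 1750 had an unadjusted p under 0.05. The largest member difference was that of Vip, whose level was 9.20 to 27.5 CPM in Fmn2+/+ and 8.45 to 18.3 in Fmn2-/- mice (log2 fold change -0.39 ± 0.28 (SE), n = 5 and 5, adjusted p = 0.654). The smallest p was that of Gad1, with 302 to 352 CPM and 325 to 383 CPM (0.12 ± 0.05, adjusted p = 0.477). No member had groups that did not overlap, against 2.97% of all genes. The 8 other members had absolute log2 fold changes of at most 0.16, and the interneuron lists held no called gene. All 5 Fmn2+/+ libraries and 1 Fmn2-/- library are on lane 5 and the other 4 on lane 6.

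**Figure D2:**
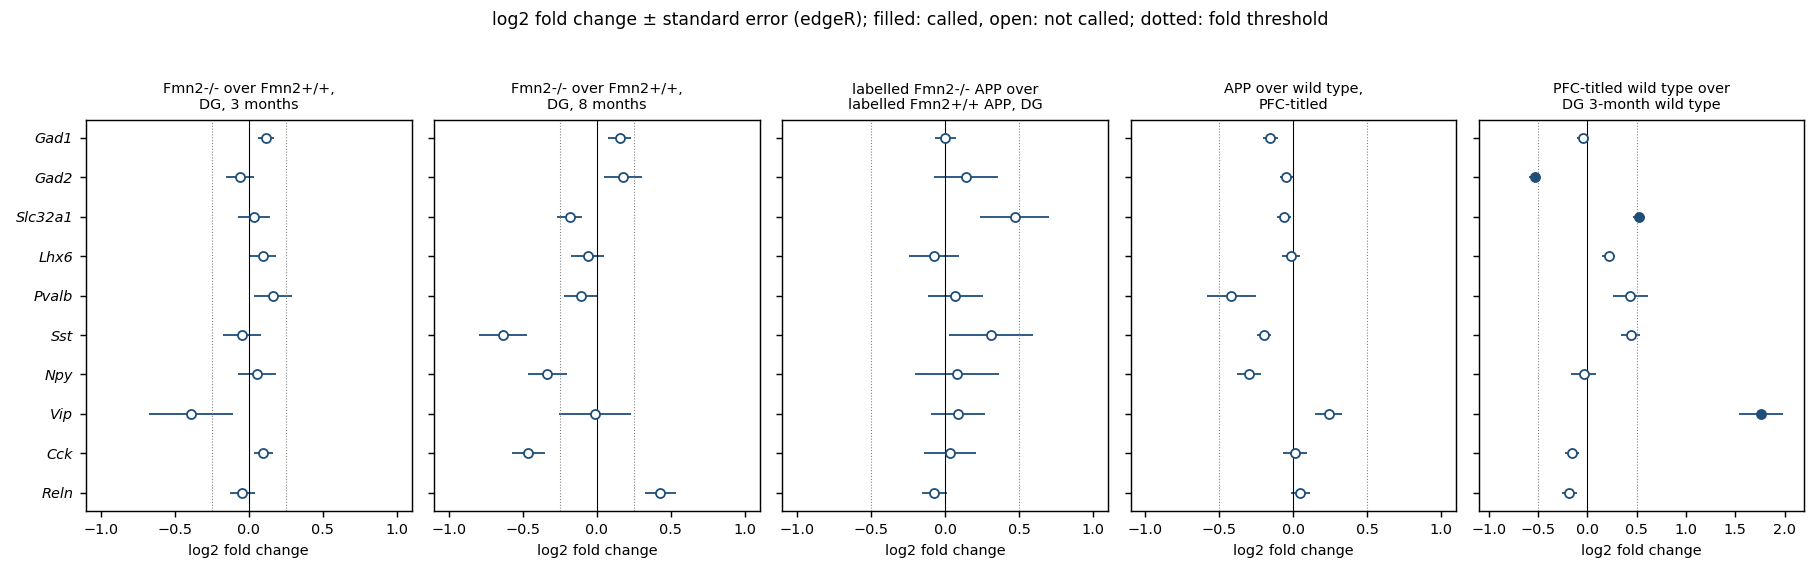
log2 fold change of each gene with its standard error (edgeR) in 5 comparisons; filled points were called and open ones not, and the dotted lines mark the fold threshold of each comparison. At 8 months Sst, Cck and Npy lie left of the threshold and Reln right of it, all with open points. Only Gad2, Slc32a1 and Vip in the comparison between tissues are filled.

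At 8 months the pattern was wider. Cck, Sst and Reln had groups that did not overlap, 3 of 10 members against 11.1% of the 14665 genes tested. Somatostatin RNA in the 3 Fmn2+/+ mice was 208, 102.4 and 115 CPM and in the 5 Fmn2-/- mice 89.7, 82.9, 79.1, 88.2 and 99.5. Every Fmn2-/- mouse was below every Fmn2+/+ mouse (99.5 against 102.4 for the nearest pair), and the highest value is that of the deeply sequenced Fmn2+/+ mouse. The log2 fold change was -0.63 ± 0.16 (SE, adjusted p = 0.0675). Cholecystokinin RNA (Cck, chr9:121489824-121495694) was 350, 237 and 251 CPM in Fmn2+/+ and 205, 212, 202, 163 and 190 in Fmn2-/- mice (log2 fold change -0.46 ± 0.11 (SE), adjusted p = 0.0569). Reelin RNA (Reln, chr5:21884454-22344702) lay the other way, at 73.8, 67.6 and 83.0 CPM in Fmn2+/+ and 88.9, 92.4, 91.3, 92.9 and 118 in Fmn2-/- mice (0.43 ± 0.10, adjusted p = 0.0582). None of the 3 passed the adjusted threshold, so no member was called with edgeR, where 1.13% of all genes were.

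These 3 genes lay near the threshold, and other settings called them. With DESeq2 all 3 were called (Cck -0.46 with adjusted p = 0.00707, Reln 0.43 with 0.0092 and Sst -0.62 with 0.00923), 3 of 10 members against 5.37% of the 12512 genes that had an adjusted p. With edgeR and no filter on low counts they were called too (adjusted p = 0.000352 for Cck, 0.00189 for Reln and 4.89e-06 for Sst), and so was Npy (0.0207). The Fmn2+/+ mouse with 43921030 reads is also the single wild type on lane 6, all other mice of this age being on lane 7. Without it, which is the comparison within lane 7, the log2 fold changes were -0.29 for Sst, -0.31 for Cck and 0.37 for Reln (adjusted p = 0.330, 0.348 and 0.335), with 2 Fmn2+/+ mice left. Without the Fmn2+/+ replicate 2, 5 members were called (Sst -0.80, Cck -0.54, Reln 0.39, Npy -0.52 and Gad2 0.38). Without replicate 3, 2 were called (Sst -0.75 and Reln 0.52). The share of all genes called without the filter or without 1 mouse is not given here, so these counts have no background beside them. With the length and GC offset, Sst had -0.40, Cck -0.25 and Reln 0.31 (adjusted p = 0.191, 0.238 and 0.208).

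The remaining members differed less at 8 months. Npy (neuropeptide Y, chr6:49822710-49829507) was 104.8, 57.8 and 93.6 CPM in Fmn2+/+ and 63.2, 72.3, 64.5, 65.7 and 62 in Fmn2-/- mice. The lowest Npy value of all belonged to a wild type, so the groups overlapped (-0.33 ± 0.13, adjusted p = 0.159). Slc32a1 had a log2 fold change of -0.19 (adjusted p = 0.202), Gad2 0.17 (0.436), Gad1 0.15 (0.258), Pvalb -0.11 (0.608), Lhx6 -0.06 (0.78) and Vip -0.01 (0.985). Of the other interneuron lists, Ndnf, a marker of neurogliaform cells, was the 1 called gene (0.57 ± 0.12 (SE), adjusted p = 0.0467). Marker sums of 2 kinds of glia also stood apart at this age. Oligodendrocyte markers summed to 2559 to 3021 CPM in Fmn2+/+ and 1735 to 2474 in Fmn2-/- mice, with 0 of 5 called. Astrocyte markers summed to 889 to 1016 and 1045 to 1202, with 1 of 4 called higher. Microglia markers overlapped (203 to 237 and 223 to 249 CPM). CA1 pyramidal markers overlapped (70.9 to 127 and 54.7 to 158 CPM). Their part in the values of Sst, Cck and Reln was not tested. Fmn2-/- replicates 2 and 3 of this age differed by a chi-square of 1.62 per degree of freedom, near that of 2 runs of 1 mouse (1.72 and 2.15), and with their counts summed no member was called.

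**Figure D3:**
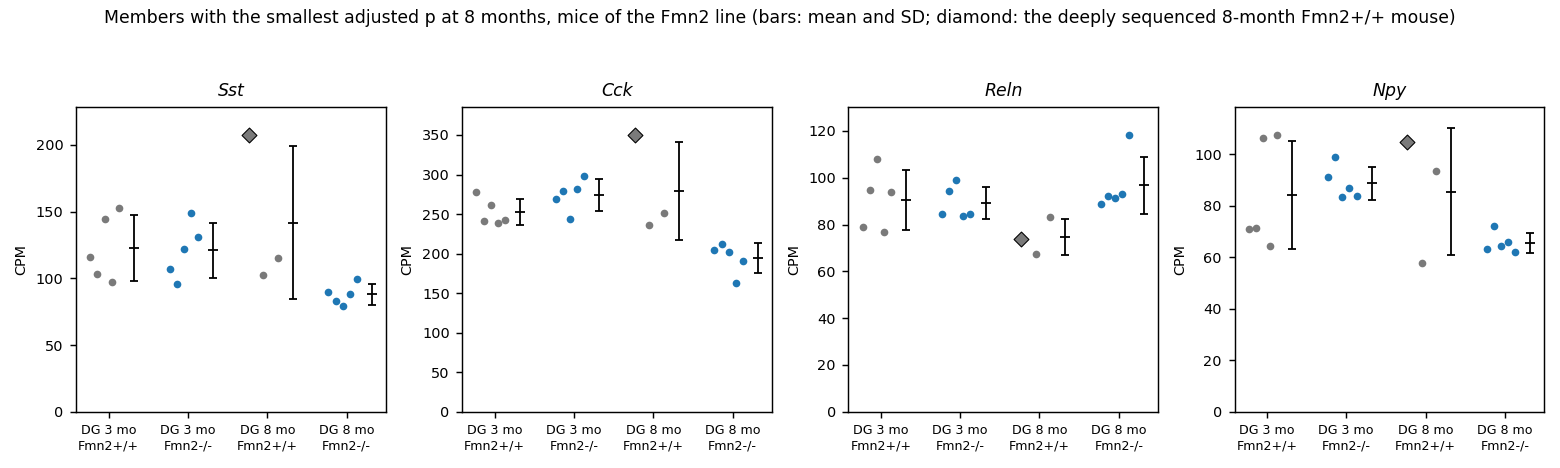
CPM of Sst, Cck, Reln and Npy in each mouse of the Fmn2 line, with the mean and SD of each group beside the points; the diamond is the Fmn2+/+ mouse of 8 months with 43921030 reads. The 5 Fmn2-/- mice of 8 months lie at 79.1 to 99.5 for Sst and 163 to 212 for Cck, lower than every mouse of the other 3 groups for Cck and than every mouse but 2 for Sst.

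Whether the effect of the genotype differed between the ages was tested by the interaction, and Cck was the 1 member called. Its log2 fold change for Fmn2-/- over Fmn2+/+ was 0.10 at 3 months and -0.46 at 8 months, and the difference was -0.57 ± 0.13 (SE, adjusted p = 0.0257), against 3.73% of all 17046 genes called. At 3 months Cck was 277, 241, 261, 239 and 243 CPM in Fmn2+/+ and 269, 280, 244, 282 and 298 in Fmn2-/- mice, with overlapping groups. The call was kept in 17 of 23 alternatives. It was lost with the length and GC offset (-0.30, adjusted p = 0.289), without the deeply sequenced Fmn2+/+ mouse (-0.42, adjusted p = 0.142) and, with adjusted p-values of 0.0512 to 0.0559, without any of 4 other mice, namely 8-month Fmn2+/+ replicate 3, 8-month Fmn2-/- replicate 5, 3-month Fmn2+/+ replicate 2 and 3-month Fmn2-/- replicate 6. Reln had 0.46 (adjusted p = 0.0712), Sst -0.60 (0.127) and Npy -0.41 (0.24). Without the 8-month Fmn2+/+ replicate 2, Sst (-0.75) and Npy (-0.58) were called as well, and Reln was called without replicate 4 of either genotype of 3 months (0.52 in each case, adjusted p = 0.0467 and 0.0494).

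Between the ages, Cck and Gad1 differed in Fmn2-/- mice. Cck fell from 244 to 298 CPM at 3 months to 163 to 212 at 8 months (log2 fold change -0.39 ± 0.09 (SE), n = 5 and 5, adjusted p = 0.00915), with no overlap, and was called in all 23 alternatives. Gad1 rose from 325, 383, 361, 357 and 360 CPM to 401, 360, 382, 412 and 419 (0.25 ± 0.06, adjusted p = 0.0106). The Gad1 groups overlapped and its fold change was at the threshold of 0.25, so that 18 of 23 alternatives kept the call. It had 0.22 without the 3-month replicate 1, and 0.24 without the 8-month replicates 4 or 5. Without the former, Slc32a1 was called (-0.28, adjusted p = 0.043). These are 2 of 10 members, against 6.44% of all genes in this comparison. In Fmn2+/+ mice no member was called, against 9.21% of all genes: Gad1 had 0.23 ± 0.07 (adjusted p = 0.0374), under the fold threshold, and Cck lay at 239 to 277 CPM at 3 months and 237 to 350 at 8 months. Without the deeply sequenced mouse Gad1 was called there (0.28, adjusted p = 0.0334), and without the 8-month replicate 2 Gad2 was (-0.40, adjusted p = 0.0344). The 2 changes with age were not shown to differ for Gad1, whose interaction was 0.03 (adjusted p = 0.896). Of the other lists, Aldh5a1, which breaks down a product of GABA, rose with age in Fmn2-/- mice (0.26, adjusted p = 0.00404), Elfn1, a synaptic organiser of Sst cells, fell (-0.50, adjusted p = 0.0268), and the astrocyte GABA transporter Slc6a11 fell in Fmn2+/+ mice (-0.28, adjusted p = 0.0456). The 3-month and 8-month Fmn2-/- libraries share no lane and differ in depth, so age and lane cannot be told apart. The comparisons by age, by genotype and the interaction share mice and are not independent of each other.

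In the amyloid cross no member was called between mice labelled FMN2-/-_APP and FMN2 +/+ APP, against 0.774% of the 16656 genes tested. The largest log2 fold change was that of Slc32a1 (0.47 ± 0.23 (SE), n = 7 and 9, adjusted p = 0.326), followed by Sst (0.31, adjusted p = 0.631), and the other 8 members had at most 0.14 in size. The spread within the groups was wide, and 3 mice stood out for more than 1 member. The mouse labelled FMN2 +/+ APP replicate 8 had the lowest level of all 16 for 8 of 10 members: Sst was 17.7 CPM there against 90.5 to 177 in the other 15, Slc32a1 11.1, Npy 16.6, Cck 65.7 and Lhx6 8.01. It was also the lowest of the 16 for 9 of 13 interneuron transcription factors, 10 of 20 other class markers and 1 of 5 genes of GABA uptake and breakdown. For 3 of the 20 class markers it was the highest. The share of all genes for which it was the lowest was not computed. Across genes its chi-square against each mouse of its label was 30.7 to 61.8 per degree of freedom. Pairs of the others of that label had 7.90 to 44.5.

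The mouse labelled FMN2-/-_APP replicate 7, which was sequenced in 2 runs, had Gad2 at 387 CPM and Slc32a1 at 90.4, against 134 to 172 and 33.0 to 46.4 in the other 6 of its group. Its Gad1, at 337 CPM, was within the range of the group, and its Cck, at 103.9, was the lowest of it. It was the highest of the 16 for 7 of 13 interneuron transcription factors, 5 of 20 other class markers and 3 of 5 genes of GABA uptake and breakdown. It was the lowest for 2 of those 20 and 1 of those 5. The share of all genes was not computed here either. Its chi-square against the others of its label was 56.8 to 99.1 per degree of freedom, and pairs of those others had 18.6 to 39.6. Its Cajal-Retzius markers summed to 27.5 CPM. The mouse labelled FMN2 +/+ APP replicate 9 had the highest Npy (139 CPM), Vip (20.3) and Reln (78.7) of the cross and an astrocyte marker sum of 3473 CPM. Without these 3 mice no member was called either: Npy had 0.33 (adjusted p = 0.158), Slc32a1 0.12 (0.545) and Gad2 -0.16 (0.238). Ndnf was the 1 gene called on the interneuron lists (-0.65 ± 0.12 (SE), adjusted p = 0.0136), lower in the mice labelled FMN2-/-_APP, which are those with the higher Fmn2 level.

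No member was called between the APP and wild type mice of the PFC-titled set, and Sst and Npy had the smallest adjusted p. Sst was 154, 130, 138, 137, 154 and 147 CPM in APP mice and 165, 153, 156, 172, 170 and 166 in wild types (log2 fold change -0.20 ± 0.05 (SE), n = 6 and 6, adjusted p = 0.0237). Npy was 62.6, 64.9, 60.8, 60.3, 82.6 and 60.5 CPM in APP mice and 77.4, 70.6, 84.5, 96.1, 77.6 and 76.7 in wild types (-0.30 ± 0.08, adjusted p = 0.0438). The groups overlapped for both, by 2 APP mice for Sst and by 1 for Npy. Both passed the adjusted p but not the fold threshold of 0.5, so 0 of 10 members were called, against 2.34% of the 16733 genes tested. Over 18 alternatives the adjusted p ranged from 0.00265 to 0.0658 for Sst and from 0.0016 to 0.108 for Npy. Pvalb had the largest fold change in size (-0.42 ± 0.17, adjusted p = 0.227), with 24.4 to 42.3 CPM in APP mice and 26.8 to 52.3 in wild types. Vip lay the other way (0.24 ± 0.09, adjusted p = 0.200), with 52.0 to 75.2 and 41.5 to 61.6 CPM. Gad1 had -0.15 (adjusted p = 0.146), Gad2 and Slc32a1 had 137 to 158 and 49.9 to 57.1 CPM in APP mice against 149 to 164 and 52.3 to 59.8 in wild types, and Cck, Reln and Lhx6 had fold changes of 0.05 or less in size.

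In the same libraries the sums of glial markers stood apart, though few astrocyte and oligodendrocyte markers were called. Microglia markers summed to 344 to 440 CPM in APP mice and 224 to 243 in wild types, with 4 of 5 called higher. Astrocyte markers summed to 470 to 629 and 330 to 392, with 1 of 4 called higher. Oligodendrocyte markers summed to 1216 to 1900 and 1991 to 5730, without overlap, with 1 of 5 called lower. Npy2r was the 1 gene called on the interneuron lists (0.53 ± 0.14 (SE), adjusted p = 0.0473). The part of these glial sums, and of the lanes that separate the genotypes, in the values of Sst and Npy was not tested.

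Set beside the 3-month Fmn2+/+ DG, the mice labelled FMN2-/-_APP, whose Fmn2 level was that of a wild type, had lower Reln and Cck. Reln was 63.3, 52.4, 54.8, 53.6, 63.4, 57.7 and 64.7 CPM in these 7 mice and 78.8, 94.6, 108, 76.8 and 94 in the 5 Fmn2+/+ mice (log2 fold change -0.61 ± 0.08 (SE), adjusted p = 9.79e-05). Cck was 152, 211, 151, 188, 134, 142 and 103.9 CPM against 277, 241, 261, 239 and 243 (-0.69 ± 0.13, adjusted p = 0.00119). The groups were apart for both genes. These are 2 of 10 members called, against 16.9% of the 16592 genes tested, and the mice come from different crosses, so cross, library batch and transgene cannot be told apart. Cck was called in all 17 alternatives and Reln in 16, the exception being the length and GC offset (-0.42). Gad2 had -0.34 and without the mouse labelled FMN2-/-_APP replicate 7 it was called (-0.64, adjusted p = 3.16e-05). Npy (-0.46, adjusted p = 0.0464) was called without the Fmn2+/+ replicate 4 (-0.54), without labelled FMN2-/-_APP replicate 3 (-0.50) and with the offset (-0.55, adjusted p = 0.0175), where Reln was not called, and Pvalb (-0.46, adjusted p = 0.0959) without labelled replicate 2 (-0.62). Of 19 other class markers, 1 was called higher (Calb2) and 8 lower, led by Ndnf (-0.93), Syt2 (-0.90) and Kcnc2 (-0.76), the latter 2 genes of fast-spiking cells. Of 13 receptors, Sstr1 (1.13) was called higher and Cckbr (-1.47) lower, and of 13 transcription factors Nr2f2 (0.58) higher and Satb1 (-0.77) lower. Markers of other cells differed here too: 3 of 5 cortical neuron markers were called lower (median of the list -0.66), 1 of 3 Cajal-Retzius markers lower, 2 of 5 granule cell markers higher and 2 of 5 choroid plexus markers higher. Their part in the values of Reln and Cck was not tested. This comparison and that between tissues share their Fmn2+/+ mice. The other cross group, labelled FMN2 +/+ APP, was not fitted against them, and its medians were 62.4 CPM for Reln and 160 for Cck. In the mice labelled FMN2-/-_APP the medians were 57.7 and 151 CPM, so low levels were not particular to that label.

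Mice of the same group that had more of 1 interneuron gene tended to have more of another. Levels were taken as the deviation of log2 CPM from the group mean over all 46 mice, and the 45 pairs of members were tested by permutation within groups. After Benjamini-Hochberg adjustment 22 pairs had a p under 0.05, all with a positive r. The share among pairs of other genes was not computed. Sst and Lhx6, both of the medial ganglionic eminence, had the highest r, 0.88 (rho 0.64, permutation adjusted p = 0.00045 and 0.00165). Without the 2 mice farthest from the median of Sst it was 0.67. Within the Fmn2 line it was 0.64 and within the cross 0.94, but -0.02 in the PFC-titled set, so this relation did not hold in all 3. Gad2 and Slc32a1, which serve the synthesis and the packing of GABA, had 0.83 (rho 0.63, permutation adjusted p = 0.00045 and 0.00191), with 0.54, 0.90 and -0.11 within the 3 sets.

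Of the 22 pairs, 11 had the same sign in the Fmn2 line, the cross and the PFC-titled set. Sst and Cck were among them, with r = 0.79 (rho 0.59, permutation adjusted p = 0.00157 and 0.00191) and 0.53, 0.87 and 0.55 within the sets. Gad1 and Gad2 had 0.54 over all mice (rho 0.66, permutation adjusted p = 0.0103 and 0.00045) and 0.73, 0.52 and 0.69 within the sets. Sst and Slc32a1 had 0.69 (rho 0.60, permutation adjusted p = 0.0275 and 0.00191) and 0.62, 0.70 and 0.81 within them. Without the 2 mice farthest on the horizontal gene, r was 0.57 for Sst and Cck, 0.36 for Gad1 and Gad2 and 0.61 for Slc32a1 and Sst. Without the 3 cross mice named above r was 0.67 for Sst and Lhx6, 0.56 for Gad2 and Slc32a1 and 0.72 for Gad1 and Gad2. Over the 22 pairs it ranged from 0.16 (Slc32a1 and Reln, 0.42 with all mice) to 0.75 (Gad2 and Lhx6), and it was 0.26 for Cck and Lhx6 (0.64 with all mice) and 0.34 for Gad1 and Npy (0.59 with all mice). Both genes of a pair come from the same library and dissection. Pvalb and Reln had the lowest r, -0.09.

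**Figure D4:**
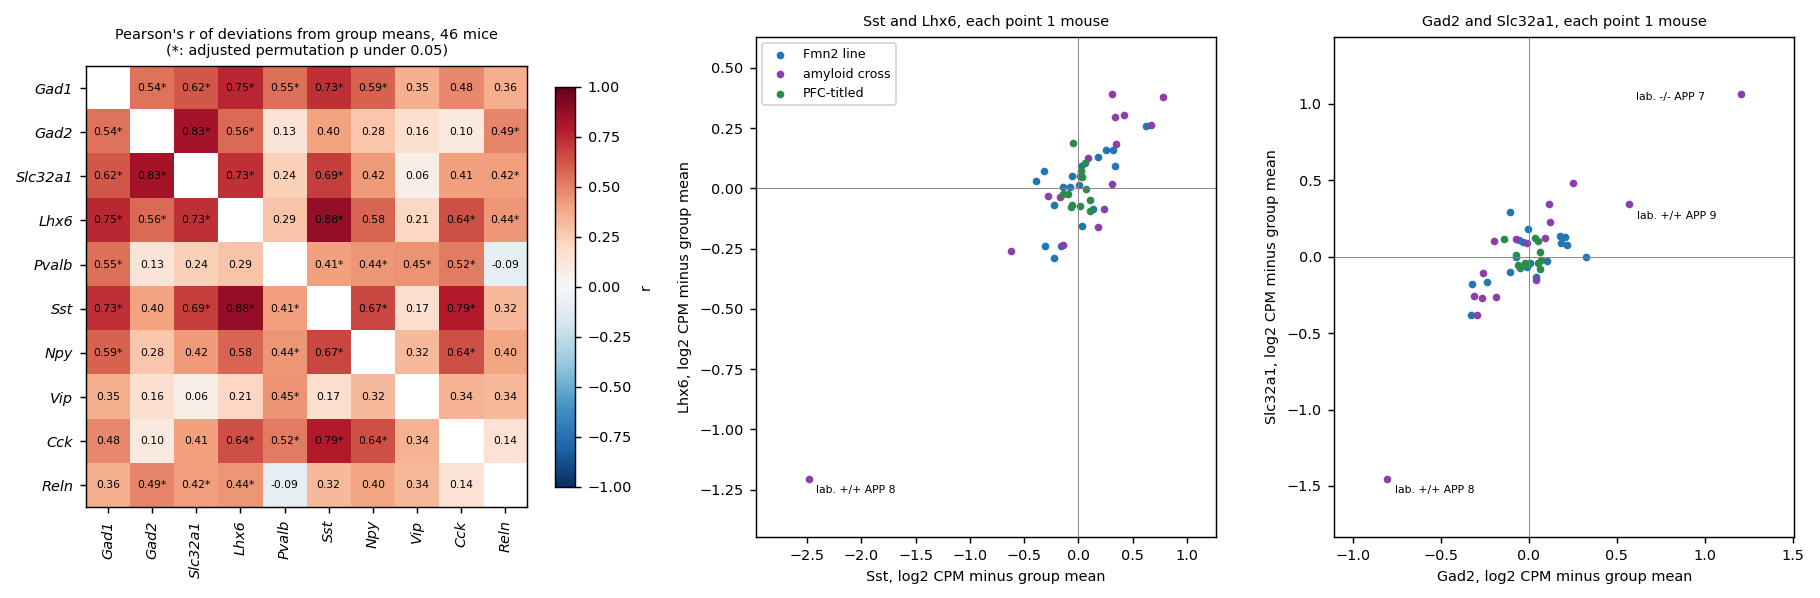
Left, Pearson's r between the deviations of 2 genes from their group means of log2 CPM over 46 mice, with a star where the adjusted permutation p is under 0.05; right, the deviations of Sst and Lhx6 and of Gad2 and Slc32a1, each point 1 mouse coloured by set. The highest r is 0.88, for Sst and Lhx6, and 1 mouse labelled FMN2 +/+ APP lies far from all others in both scatter plots.

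The genes whose deviations were most like those of Gad2 over the 46 mice, among 14752 genes with a mean of at least 1 CPM, were Rbms3 (r = 0.93), Gpr165 (0.90), Nap1l3 (0.89), Dzank1 (0.88) and Cbln4 (0.88). Without the 3 cross mice they had 0.82, 0.80, 0.71, 0.82 and 0.58. Rbms3 was the 1 gene of these with a like value in each set (0.80 in the Fmn2 line, 0.96 in the cross and 0.80 in the PFC-titled mice), while Gpr165 had 0.09 and Nap1l3 0.04 in the PFC-titled mice. For Sst they were Lypla2 (0.89), Cend1 (0.89), Gpr137 (0.88), Lhx6 (0.88) and Dgcr6 (0.88), and without the 3 mice 0.68, 0.76, 0.68, 0.67 and 0.72. Lhx6 was thus the 1 member among the 5 genes nearest to Sst, and none was among those nearest to Gad2. These values are a description, chosen as the highest of all genes.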

How the data were processed

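Messenger RNA libraries were made with a TruSeq kit. The authors aligned the reads with STAR to mm10, the build that the submitters' processing notes name, and counted them per Ensembl gene with HTSeq in its intersection mode, so the deposited values are raw read counts, 1 file per run, and reads shared by near-identical genes are lost or split. The strand setting and the annotation release are not given in the sources used here. No row named anything but a gene.

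Symbols, exon lengths and GC content came from GENCODE M21 on the same build. The 2 runs of 2 cross mice were summed, giving 46 mice from 48 runs. Levels are CPM with TMM factors over all mice. Each comparison was fitted with edgeR 4.0.16 in R 4.3.3 (filterByExpr, quasi-likelihood test, Benjamini-Hochberg over all genes tested), on the mice of that comparison, or on the 4 groups of the Fmn2 line for ages and the interaction. A gene was called at an adjusted p under 0.05 with a log2 fold change of 0.25 or more in either direction in the Fmn2 line, or 0.5 elsewhere. Groups follow the labels. Standard errors are those of the fitted log2 fold changes. Depth per mouse sets the precision of counts, and no interval was added to it.

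Alternatives were DESeq2 1.42.0, RLE size factors, no filter, an offset for length and GC content, lane, replicate blocks and leaving out each mouse. The fits were tested on simulated counts. The members and gene lists were chosen with earlier results of these data known. Named genes were all 10 members and, per other list and comparison, at most the 3 called genes with the largest change. The value of 1 listed transcription factor is not reported here. For likeness they were the 5 genes with the highest r, with 0.5 added to CPM before the log. Promoters were read from a RefSeq table that had a window for all 10 members, 1 window for 8 of them.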

Additional observations from a re-analysis of the deposited data

Results flagged for a closer look

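A mouse was singled out where its gap to the nearest of its group exceeded Dixon's 95% limit. Of 70 sets of 1 member in 1 group, 10 were, 9 for the highest and 1 for the lowest mouse, and they came from 6 mice. The 70 do not cover all 10 members in all 8 groups, and the sets left out are not named here. No mouse of the 8-month Fmn2+/+ group, which holds the deeply sequenced mouse, is among the 6. Chance gives about 1 in 20. The mouse labelled FMN2-/-_APP replicate 7 had Gad2 at 387 CPM (nearest mouse 172) and Slc32a1 at 90.4 (nearest 46.4). The mouse labelled FMN2 +/+ APP replicate 9 had Npy at 139 CPM (nearest 73.5) and Vip at 20.3 (nearest 13.3), and replicate 8 of that label had Gad1 at 249 CPM, the lowest of its group. The Fmn2-/- mouse of 8 months replicate 5 had Gad2 at 247 CPM (nearest 210) and Reln at 118 (nearest 92.9). The PFC-titled APP mouse replicate 5 had Pvalb at 42.3 CPM (nearest 29.3) and Npy at 82.6 (nearest 64.9). The Fmn2-/- mouse of 3 months replicate 2 had Pvalb at 41.6 CPM (nearest 31.9).

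The effect of genotype on Cck differed between 8 and 3 months by -0.57 on the log2 scale (edgeR interaction, adjusted p = 0.0257), and without the deeply sequenced Fmn2+/+ mouse of 8 months by -0.42 (adjusted p = 0.142).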

How the results depend on the processing

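Counts of called members were 0 in every fit at 3 months, in the cross and between APP and wild type, with no alternative or left-out mouse making a call. At 8 months the count of 0 became 3 with DESeq2, 4 with no filter (Cck, Reln, Sst and Npy) and 0 to 5 when 1 mouse was left out. For the interaction the count of 1 became 2 with DESeq2 (Cck and Reln), 0 with the length and GC offset and 0 to 3 with 1 mouse left out. With age in Fmn2-/- mice the count of 2 became 1 with no filter, 1 with the offset and 1 to 2 with 1 mouse left out. With age in Fmn2+/+ mice the count of 0 became 1 with the offset (Gad1) and 0 to 1 with 1 mouse left out. Between tissues it was 3, and 2 to 4 with 1 mouse left out, and for the labelled FMN2-/-_APP mice against Fmn2+/+ it was 2, and 2 to 3. Of 1770 alternative values for single members, 0 reversed a called direction, 16 lost a call and 33 gained one. Another 100 changed sign for a member that was called in neither fit. The causes of these changes were not tested, and the share of all genes called in each alternative is not given beside these counts.

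Same-numbered mice had a mean correlation of 0.05 at 3 months, -0.04 at 8 months, 0.07 in the cross and 0.005 in the PFC-titled set. With 3 to 7 such pairs per comparison, these values cannot decide whether replicate numbers pair the mice. With a replicate block the count of called members was 0 in each of these 4 comparisons. Over the 45 pairs of members, 22 passed with TMM and 20 with RLE factors.

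The lowest count behind any member's value was 76 reads (Vip), so counting error was largest for Vip. All alternatives were planned except the fit without 3 cross mice, which was chosen after seeing the data.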

Other observations

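Other cell types varied between single mice in ways the groups do not explain. Choroid plexus markers summed to 4265 CPM in the Fmn2-/- mouse of 3 months replicate 4, and to 9260 and 6039 CPM in the mice labelled FMN2 +/+ APP replicates 4 and 5, against medians of 44.1 to 93.8 CPM in the 6 DG groups.

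C1ql2, a synaptic protein of granule cells, was lower in Fmn2-/- mice at 8 months (-0.65 on the log2 scale) and had an interaction with age of -0.91. In the cross it was higher in mice labelled FMN2-/-_APP (0.59), which are those with the higher Fmn2 level. So it was lower in the mice with less Fmn2 RNA in the cross and at 8 months in the Fmn2 line, but not at 3 months, the age of the cross. The interaction was larger in size than the 8-month difference, so the 3-month difference leaned the opposite way. None of the 5 granule cell markers was called at 3 months in the Fmn2 line. C1ql2 was the 1 of them called at 8 months and in the cross, where the medians of the list were 0.02 and 0.29. Aqp4, the water channel of astrocyte end feet, was higher in Fmn2-/- mice at 8 months (0.46), and Gfap, a filament of reactive astrocytes, was higher in the APP mice of the PFC-titled set (2.10). All 5 differences of single genes given here on the log2 scale were called with edgeR.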
